A study of Mus musculus with 4 samples.

Results

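The aryl hydrocarbon (Ah) receptor genes and the genes of xenobiotic metabolism linked to them were followed through ATAC-seq peak lists of mouse adipose tissue. The 10 genes were Ahr, Arnt, Ahrr, Tiparp, Cyp1a1, Cyp1b1, Cyp2b10, Nqo1, Nfe2l2 and Por, out of 21000 protein-coding genes with a curated RefSeq transcript on mm10, the GRCm38 assembly. For each gene, peaks were taken within 500 bp of any of its curated start sites, called promoter peaks here, and from 20 kb upstream of the first start site to the end of the gene, called the locus. Peaks of the 4 libraries that overlapped were merged into 147153 regions, of which 65 touched the 10 loci. The genes were chosen by what earlier work on these same lists had shown, above all by control-only peaks around Cyp2b10, so presence, ranks and the contrast of groups are given as descriptions and none of them was tested.

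ATAC-seq marks open chromatin, because a transposase cuts and tags DNA where nucleosomes leave it exposed. The tissue was visceral fat taken at 8 weeks from CD-1 mice, which are outbred. Both control libraries came from a line whose founding dams received sesame oil, and both BPA libraries from a line whose founding dams received bisphenol A, a plasticiser, by intraperitoneal injection at 50 mg/kg a day from embryonic day 7.5 to 13.5. The animals sampled had not been dosed themselves. The labels and the methods of the study name different generations for the BPA animals, the labels give neither sex nor batch, and the deposited list of BPA 2 carries another replicate number than its label. The study describes 4 mice for the 4 libraries, and because CD-1 animals differ in genotype, a difference of treatment line and a difference of genotype cannot be told apart with 2 libraries a group. In bulk nuclei, fewer cells with an open site and a site less open in each cell cannot be told apart either.

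The Ah receptor is a cytosolic transcription factor that binds planar aromatic compounds, moves to the nucleus, pairs with ARNT and switches on detoxifying enzymes such as the CYP1 family. The same response is dampened by AHRR and TIPARP, which the receptor itself induces. NRF2, encoded by Nfe2l2, runs a parallel antioxidant response that shares targets such as Nqo1, while Cyp2b10 is the classical target of another xenobiotic sensor, the nuclear receptor CAR, best known from liver. All microsomal P450 enzymes draw their electrons from the reductase encoded by Por.

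The lists held 82665 and 88911 peaks in controls 1 and 2, and 72375 and 98060 in BPA 1 and 2. They hold no read totals. The number of overlapping reads at each summit (the pile-up) and the local background were solved from the deposited fold and p-value. The lowest background behind any peak, a rough measure of depth, was 2.85 and 2.70 in controls 1 and 2, and 1.16 and 3.80 in BPA 1 and 2, so BPA 1 was the shallowest library and BPA 2 the deepest. All 7 adipocyte marker promoters held a peak in every library and none of the 5 hepatocyte ones did. Of 6 endothelial markers, 2 held a promoter peak in each control and 6 in each BPA library, and Pecam1, Cdh5, Tie1 and Erg were the 4 found only in BPA. Of 6 fibroblast and pericyte markers, 4 held one in each control and 6 in each BPA library (Dpt and Rgs5 only in BPA). Leukocyte markers held one for 3, 2, 3 and 3 of 6 genes in controls 1 and 2 and BPA 1 and 2, mesothelial markers for 2, 2, 2 and 1 of 3, and epithelial markers for 2, 0, 2 and 2 of 3. The BPA-only ones of these lists were Cd68 and Cdh1. Thus 4 endothelial and 2 fibroblast and pericyte markers were BPA-only, as were 2.51% of all coding genes. The other 2 endothelial and 4 fibroblast and pericyte markers held a promoter peak in all 4 libraries. The part of cell composition in the results on the 10 genes was not tested.

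Of the 10 genes, 8 and 10 had a promoter peak in controls 1 and 2, and 7 and 8 in BPA 1 and 2. Over all coding genes the shares were 62.6% and 61.4% in the controls and 64.1% and 67.4% in BPA, so the order of the groups was the other way round. Controls averaged 9 ± 1.41 genes and BPA libraries 7.5 ± 0.707 (SD, n = 2 each), and the groups met at 8 genes. Ahr, Arnt, Tiparp, Cyp1b1, Nqo1, Nfe2l2 and Por, 7 of the 10, held a promoter peak in every library, beside 57.9% of all coding genes. None of the 10 was without a promoter peak in all 4 libraries, against 30.4% of coding genes. Likewise, 0 of the 10 held one in both BPA libraries and neither control (2.51% of coding genes), and 0 held one in both controls and neither BPA library (0.433%). The remaining 3 genes, Ahrr, Cyp1a1 and Cyp2b10, varied between libraries of the same group.

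**Figure D1:**
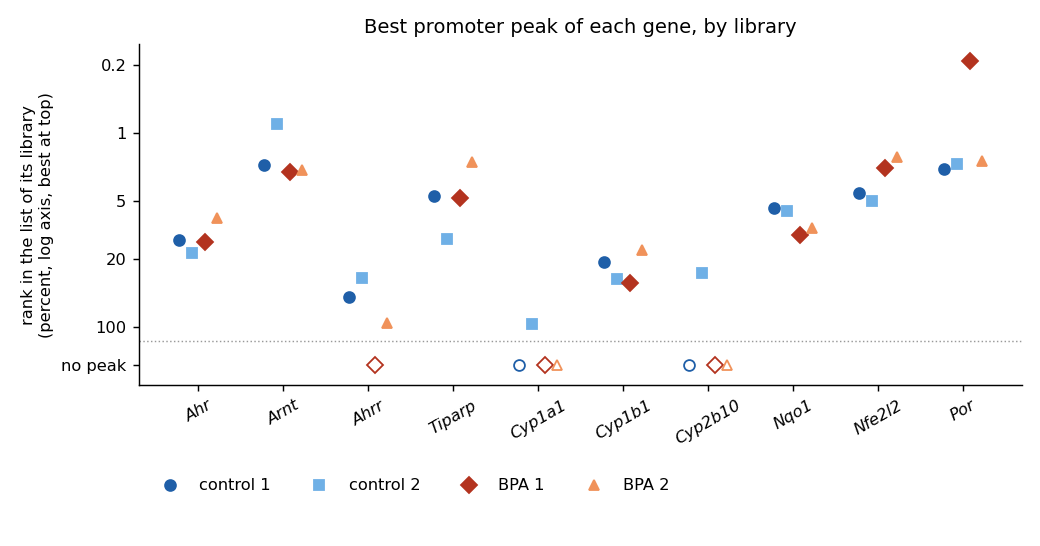
Rank of the best promoter peak of each gene in the list of its own library, as the percent of peaks with a q-value as good or better, on a log axis with the best rank at the top; open symbols below the dotted line mark a library with no promoter peak. Por in BPA 1 holds the best rank at 0.181%, and only Ahrr, Cyp1a1 and Cyp2b10 lack a peak in 1 or more libraries.

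Ahr itself (chr12:35497979-35534989, minus strand) was open at its promoter in all 4 libraries. Strength was compared as the rank of a peak in its own list, the percent of peaks with a q-value as good or better, so that a small rank is a strong peak. The Ahr promoter ranked at 12.6% and 17.3% in controls 1 and 2, and 13.4% and 7.54% in BPA 1 and 2, and BPA 1 fell between the controls. The locus held 7 regions, and the promoter was the only one of them in all 4 libraries. Within the gene, control-only and BPA-only regions alternated. Intronic regions 2605 bp and 19024 bp into the gene were found in both controls only, at ranks of 55.3% and 50.4% for the nearer one and 37.7% and 84.1% for the farther one. The regions at 12101 bp, intronic, and at 30563 bp, exonic, were found in both BPA libraries only, at ranks of 57.7% and 51.5% and of 58.0% and 88.8%. Apart from control 1 at 19024 bp, each of these peaks ranked past the middle of its list. The upstream region 18438 bp before the start site, the best distal one, was absent from control 1 and ranked at 79.6% in control 2 but at 27.9% and 26.9% in BPA 1 and 2. The summit with 50 bases either side is shown for the nearer control-only region (chr12:35532334-35532434) and the intronic BPA-only region (chr12:35522838-35522938), in the direction of the gene, and neither held any of the 3 motifs described next.
Ahr intron, control-only: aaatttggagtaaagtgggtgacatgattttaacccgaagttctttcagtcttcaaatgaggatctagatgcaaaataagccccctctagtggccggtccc
Ahr intron, BPA-only: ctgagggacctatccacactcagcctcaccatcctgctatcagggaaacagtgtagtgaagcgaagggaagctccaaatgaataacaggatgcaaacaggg

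3 motifs were searched on both strands. They were the Ah receptor element TNGCGTG, the antioxidant element TGACNNNGC bound by NRF2 with small MAF proteins, and a direct repeat of AGGTCA spaced by 4 bases, the type bound by CAR, with up to 2 mismatches. The first was present in 6 of 65 locus summit windows of 301 bp, 9.23%, and in 3.38% of the windows of all regions. The antioxidant element was in 12 of the 65, 18.5%, against 12.3% of all, and the direct repeat in 5 of the 65, 7.69%, against 3.56%. In the RefSeq promoter windows of 300 bp the shares over coding promoters were 5.98%, 13.0% and 2.65% in the same order. These are matches of letters and not shown to be bound sites. The 6 windows with an Ah receptor element lay in Ahrr (3), Ahr, Arnt and Cyp1a1 (1 each). The 12 with an antioxidant element lay in Tiparp (4), Ahr, Arnt and Por (2 each), and Cyp1a1 and Cyp1b1 (1 each). The summit windows of Nqo1 and Nfe2l2 thus held neither element. For 9 of the 10 genes a RefSeq promoter (GRCm38.p6) was matched by symbol, and Ahr was not matched.

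Arnt (chr3:95434367-95497240, plus strand), the shared dimer partner, had one of the strongest promoters of the group. It ranked at 2.13% and 0.806% in controls 1 and 2, and 2.54% and 2.41% in BPA 1 and 2, so both BPA ranks were a little worse than both control ranks. The gene body held 5 further regions, all intronic, of which 3 were seen in every library but BPA 1. The best of these, 25222 bp into the gene, ranked at 23.0% in control 1, 32.3% in control 2 and 63.9% in BPA 2. One weak intronic region at 11290 bp was BPA-only, with ranks of 84.0% and 92.9%. The 250 bases before the start site (chr3:95434140-95434389) are shown because 2 antioxidant elements, in capitals, stood in this window under a peak of all 4 libraries.
Arnt promoter: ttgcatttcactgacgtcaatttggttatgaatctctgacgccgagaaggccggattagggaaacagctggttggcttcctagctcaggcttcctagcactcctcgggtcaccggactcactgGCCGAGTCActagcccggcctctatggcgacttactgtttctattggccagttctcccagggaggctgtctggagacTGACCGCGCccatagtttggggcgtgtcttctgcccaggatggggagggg

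Ahrr (chr13:74211118-74292331, minus strand), the repressor that competes for ARNT, had a weaker and less regular promoter than the other 2 receptor genes. It ranked at 48.9% in control 1, 30.9% in control 2 and 92.1% in BPA 2, and BPA 1 listed no peak there. By contrast, the other 3 regions of the locus were in all 4 libraries. The region 9016 bp upstream ranked between 29.4% and 39.2%. The intronic region at 32210 bp ranked at 29.8%, 46.1%, 15.7% and 9.07% in controls 1 and 2 and BPA 1 and 2, so both BPA ranks were better. The intronic region at 46591 bp ranked at 23.9%, 10.7%, 16.0% and 12.4%, with the groups overlapping. Ahrr also held 3 of the 6 locus windows with an Ah receptor element. The promoter (chr13:74292332-74292581) had 1 match, and the summit windows of 201 bp at 32210 bp (chr13:74260021-74260221) and at 46591 bp (chr13:74245640-74245840) had 2 each. All 3 are shown on the minus strand with the matches in capitals, and the intronic ones were picked for display after their matches were known.
Ahrr promoter: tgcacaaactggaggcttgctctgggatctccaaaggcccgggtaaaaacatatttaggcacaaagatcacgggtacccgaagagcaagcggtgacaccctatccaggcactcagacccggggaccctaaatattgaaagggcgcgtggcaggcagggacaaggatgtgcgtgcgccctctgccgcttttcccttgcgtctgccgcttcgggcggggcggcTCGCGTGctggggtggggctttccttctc
Ahrr intron, 32210 bp: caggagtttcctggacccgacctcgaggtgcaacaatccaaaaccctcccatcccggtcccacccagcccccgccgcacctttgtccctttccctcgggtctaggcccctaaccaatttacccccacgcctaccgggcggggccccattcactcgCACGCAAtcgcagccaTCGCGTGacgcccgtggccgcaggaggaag
Ahrr intron, 46591 bp: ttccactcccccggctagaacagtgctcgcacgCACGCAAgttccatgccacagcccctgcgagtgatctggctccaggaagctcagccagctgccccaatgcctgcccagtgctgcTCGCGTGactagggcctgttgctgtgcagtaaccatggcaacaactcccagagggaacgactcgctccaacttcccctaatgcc

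Tiparp (chr3:65528447-65555518, plus strand), whose product ADP-ribosylates the receptor, ranked at 4.41% and 12.3% in controls 1 and 2, and 4.72% and 2.01% in BPA 1 and 2. BPA 2 was strongest and control 2 weakest, while control 1 and BPA 1 were nearly level. The promoter region was 2560 bp long and also covered the start site of 4931440P22Rik, 967 bp into Tiparp. In control 2 alone the 2 start sites lay under separate peaks, of which the one at Tiparp is ranked here. The locus held 10 regions, of which 5 were found in a single library and 3 in all but BPA 1. The best distal one, intronic at 22836 bp, ranked at 25.3% in control 1, 41.8% in control 2 and 58.5% in BPA 2. No region of Tiparp or Ahrr was control-only or BPA-only.

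Cyp1a1 (chr9:57687928-57703824, plus strand), the marker enzyme of Ah receptor activation, lacked a promoter peak in 3 of the 4 libraries. It has 2 curated start sites, and no library had a peak within 500 bp of the first. Near the second, control 2 alone met the 500 bp limit, with a weak peak at rank 92.5% whose edge lay 390 bp upstream of that site. BPA 1 and BPA 2 had stronger peaks in the same merged region, at ranks of 53.9% and 59.9%, but these ended 603 bp and 567 bp upstream and were not counted. With a limit of 1000 bp the gene would thus be present in control 2, BPA 1 and BPA 2, and absent from control 1 only. Pile-ups at the summits were 13, 16 and 33 reads in control 2, BPA 1 and BPA 2. The summit window of 201 bp (chr9:57696535-57696735, plus strand), intronic to the longer transcript, held 3 Ah receptor elements, more than any other printed window. In the summit windows of 301 bp, the Ahrr region at 32210 bp held 3 as well. The Cyp1a1 window was chosen for display after its matches were known, and the matches are in capitals.
Cyp1a1 upstream of the second start site: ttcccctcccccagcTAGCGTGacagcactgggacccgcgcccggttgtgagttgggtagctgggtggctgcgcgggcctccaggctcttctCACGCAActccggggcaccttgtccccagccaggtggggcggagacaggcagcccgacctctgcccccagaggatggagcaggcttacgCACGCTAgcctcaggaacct

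The neighbouring Cyp1a2, whose start site lies in the Cyp1a1 locus, had no promoter peak in any library. A region 20136 bp before the first Cyp1a1 start site, whose edge reached into the locus, was BPA-only at ranks of 65.3% and 66.5%. No region of the Cyp1a1 locus was in all 4 libraries.

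Cyp1b1 (chr17:79706940-79715061, minus strand), the CYP1 enzyme most widely expressed outside the liver, had a promoter peak in all 4 libraries. Its summits lay at -646 and -653 bp from the start site in controls 1 and 2, and -745 and -603 bp in BPA 1 and 2. Negative is upstream, so all lay outside the 500 bp limit, and the control 2 peak ended at -397 bp. With the summit required in the window, 6 genes held a promoter peak in every library. The Cyp1b1 promoter ranked at 21.4% and 32.2% in controls 1 and 2, and 35.6% and 15.9% in BPA 1 and 2, and the groups overlapped. This was the weakest of the 7 promoters present in every library. All 3 distal regions were upstream and group-only. The one at 13455 bp was control-only at ranks of 75.2% and 81.1%. Those at 11718 bp and 5848 bp were BPA-only, at ranks of 77.8% and 71.6% and of 77.5% and 53.7%. All of these peaks were weak, with pile-ups of 10 to 32 reads.

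Nqo1 (chr8:107388225-107403205, minus strand), a quinone reductase driven by both the Ah receptor and NRF2, ranked at 5.99% and 6.32% in controls 1 and 2, and 11.2% and 9.60% in BPA 1 and 2. Both BPA ranks were worse than both control ranks. The rest of the locus was sparse, with regions 8345 bp upstream and 13410 bp into the gene that were seen in all but BPA 1. The second of these, the best distal one, ranked at 63.2% in control 1, 20.7% in control 2 and 49.1% in BPA 2.

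Nfe2l2 (chr2:75675513-75704663, minus strand) showed the opposite order. Its promoter ranked at 4.14% and 5.02% in controls 1 and 2, and 2.27% and 1.78% in BPA 1 and 2. The locus was also one of the most evenly shared, with 5 of 9 regions in all 4 libraries and no region particular to a group. The strongest distal site, intronic at 21206 bp, ranked at 12.5%, 11.0%, 21.2% and 11.1% in controls 1 and 2 and BPA 1 and 2. The 250 bases before the start site (chr2:75704664-75704913, minus strand) held 1 antioxidant element, in capitals, the letters that its own product recognises.
Nfe2l2 promoter: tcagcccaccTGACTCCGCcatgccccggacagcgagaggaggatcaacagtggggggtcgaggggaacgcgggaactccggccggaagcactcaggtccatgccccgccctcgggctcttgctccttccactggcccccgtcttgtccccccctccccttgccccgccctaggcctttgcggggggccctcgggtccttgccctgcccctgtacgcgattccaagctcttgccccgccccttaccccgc

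Por (chr5:135670040-135735326, plus strand) had 14 regions, the most of any locus, and 6 of them were in all 4 libraries. The curated start site used lies at position 135689145, inside the gene span given above. Regions called upstream lie before this site and can still fall within that span. The promoter ranked at 2.35% and 2.07% in controls 1 and 2, and 0.181% and 1.92% in BPA 1 and 2, and BPA 1 stood apart. The best distal region, intronic at 13663 bp, ranked at 5.90%, 14.0%, 18.8% and 15.4% in the same order of libraries, so here the controls were ahead. 2 regions were BPA-only. The one 16008 bp upstream ranked at 90.7% and 45.7%. The intronic one at 24492 bp ranked at 28.3% in BPA 1 and 24.7% in BPA 2, with pile-ups of 40 and 100 reads, and was the strongest of the 8 BPA-only regions. Its summit (chr5:135713587-135713687, plus strand) is shown for that reason and held none of the 3 motifs.
Por intron, BPA-only: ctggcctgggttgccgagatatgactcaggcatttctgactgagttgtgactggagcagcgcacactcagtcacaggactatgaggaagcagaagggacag

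Across the 7 promoters open in every library, the 2 BPA ranks were both better than the 2 control ranks for 2 genes, Nfe2l2 and Por, against 40.7% of the 12166 coding genes with a promoter peak in all 4 libraries. They were both worse for 2 genes, Arnt and Nqo1, against 18.7%, and the groups overlapped for Ahr, Tiparp and Cyp1b1. The median difference of group means, BPA minus control, was -1.16 percentage points over the 7 genes and -1.84 over all 12166, a shift toward better BPA ranks in both sets. These differences depend on the measure and on single libraries. Ranked by fold instead of q-value, the difference turned from -2.55 to 0.148 for Nfe2l2, from -1.16 to 0.518 for Por and from -1.05 to 24.3 for Cyp1b1, and ranked by pile-up it turned from -4.52 to 0.256 for Ahr. The Cyp1b1 difference was -6.42 without control 1, 4.32 without control 2, -10.9 without BPA 1 and 8.79 without BPA 2. For Ahr it was -6.86 without control 1, -2.18 without control 2, -7.44 without BPA 1 and -1.60 without BPA 2. For Tiparp it went from -5.01 to -8.97 without control 1 and -1.05 without control 2, and for Arnt from 1.01 to 1.67 and 0.345. For Por it was -0.288 without BPA 1 and -2.03 without BPA 2. Nqo1, at 3.45 to 5.05, and Nfe2l2, at -2.99 to -2.11, moved less.

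The pile-up gave another view of the same promoters. Divided by the lowest background of its own library, the summit pile-up was higher in both BPA libraries than in both controls for all 7 genes, as it was for 96.1% of the 12166 genes. The order was thus shared with nearly all promoters, and the genes differed in degree. For Nfe2l2 it was 36.8 and 36.3 in controls 1 and 2, and 171 and 168 in BPA 1 and 2. For Por it was 31.9, 35.9, 193 and 126, and for Tiparp 33.0, 24.8, 118 and 139. These 3 genes had ratios of BPA to control means of 4.64, 4.71 and 4.44, above the median of 3.37 over all genes. Lower ratios were held by 80.9%, 81.9% and 77.6% of the 12166 genes, so many other promoters had ratios as high. Arnt stood at 34.6 ± 7.71 in controls and 105 ± 10.0 in BPA (SD, n = 2), a ratio of 3.02. Below the median as well were Ahr at 2.75, Cyp1b1 at 2.86 and Nqo1, the lowest of the 7, at 2.19. A ratio below that of Nqo1 was held by 16.3% of the 12166 genes. In Nqo1 the multiples were 20.3, 22.6, 51.9 and 42.1 in controls 1 and 2 and BPA 1 and 2.

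**Figure D2:**
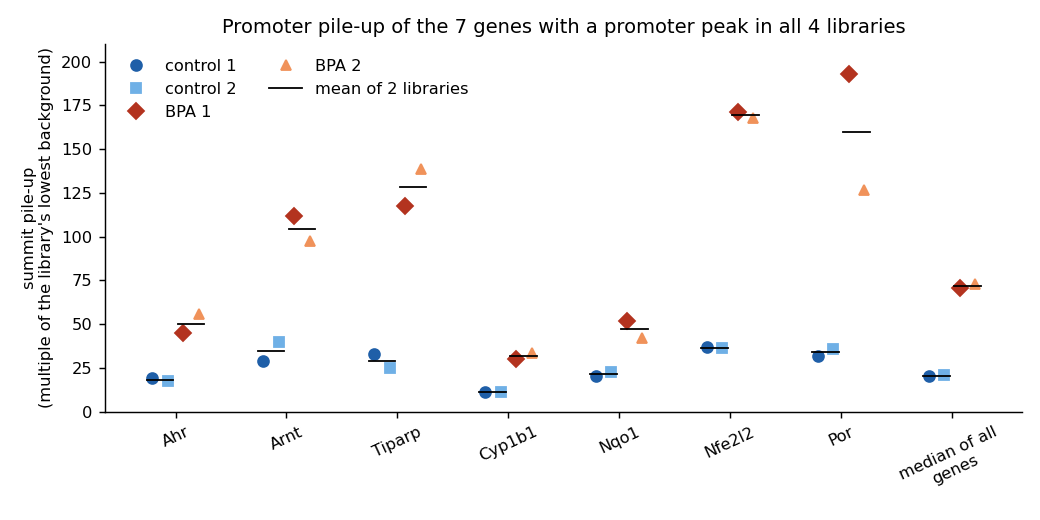
Summit pile-up of the best promoter peak as a multiple of the lowest background of the same library, for the 7 genes with a promoter peak in all 4 libraries and for the median of 12166 coding genes; points are libraries and bars are means of 2 libraries. Both BPA points lie above both control points for every gene, with the widest gap for Por and Nfe2l2 and a ratio of 2.19 for Nqo1.

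Over the 10 loci there were 43 and 45 peaks in controls 1 and 2, and 36 and 49 in BPA 1 and 2. The means were 44 ± 1.41 in controls and 42.5 ± 9.19 in BPA (SD, n = 2), and the difference was smaller than the spread within BPA. Its direction was not stable, since controls averaged 29.5 and BPA 35.5 at a −log10 q-value of at least 5, and BPA 2 alone held 49 peaks against the 44 of controls when BPA 1 was left out. Per 10000 peaks of a list the loci held 5.20, 5.06, 4.97 and 5.00 peaks, which is nearly level. Of the 65 merged regions, 10 were promoter regions and 55 distal. By their summit, 39 lay in introns and 5 in exons of curated transcripts, and 21 lay outside them. The last include promoter summits just before a start site. In all 4 libraries there were 21 regions, 32.3% of the 65, against 26.3% of all merged regions. Control-only regions numbered 4, against 5.33% of all regions, and made up 6.15% of the 65. BPA-only regions numbered 8, or 12.3%, against 9.4%. Both shares were near those of all regions. Regions seen in every library but the shallow BPA 1 numbered 9, or 13.8% of the 65, and made up 4.66% of all regions. A further 15, or 23.1%, were found in a single library, as were 39.5% of all regions. Judged without control 1, control 2 or BPA 2, with the other library standing for its group, the control-only count was 9, 9 and 13, and the BPA-only count was 9, 11 and 9 (12 without BPA 1).

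**Figure D3:**
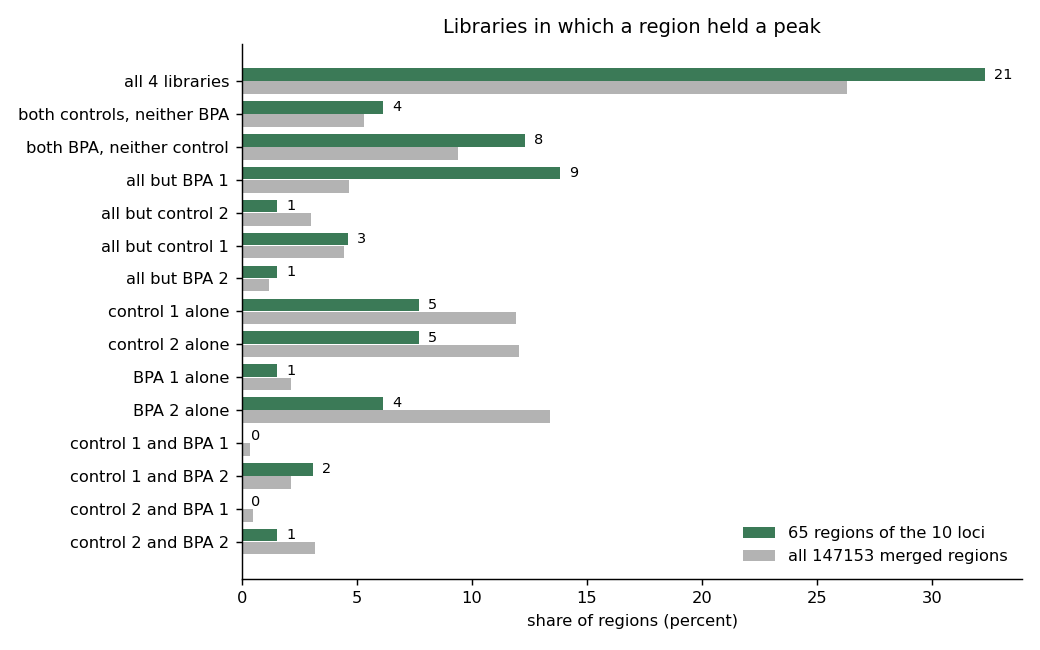
Share of regions, in percent, by the libraries in which they held a peak, for the 65 regions of the 10 loci (green, with their number) and for all 147153 merged regions (grey). The largest class in both is all 4 libraries, and 9 locus regions were missing from BPA 1 alone.

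Group-only regions were mostly weak. The distal ones found in all 4 libraries had a median rank of 29.3%, whereas the 8 control-only ranks had a median of 52.9% and the 16 BPA-only ranks one of 65.9%. The summit windows of the 4 control-only regions were poorer in G+C, with a median of 42.2%, than those of the 8 BPA-only regions at 49.3%. Over all regions the medians were 43.5% and 49.5%, close to those in the loci.

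**Figure D4:**
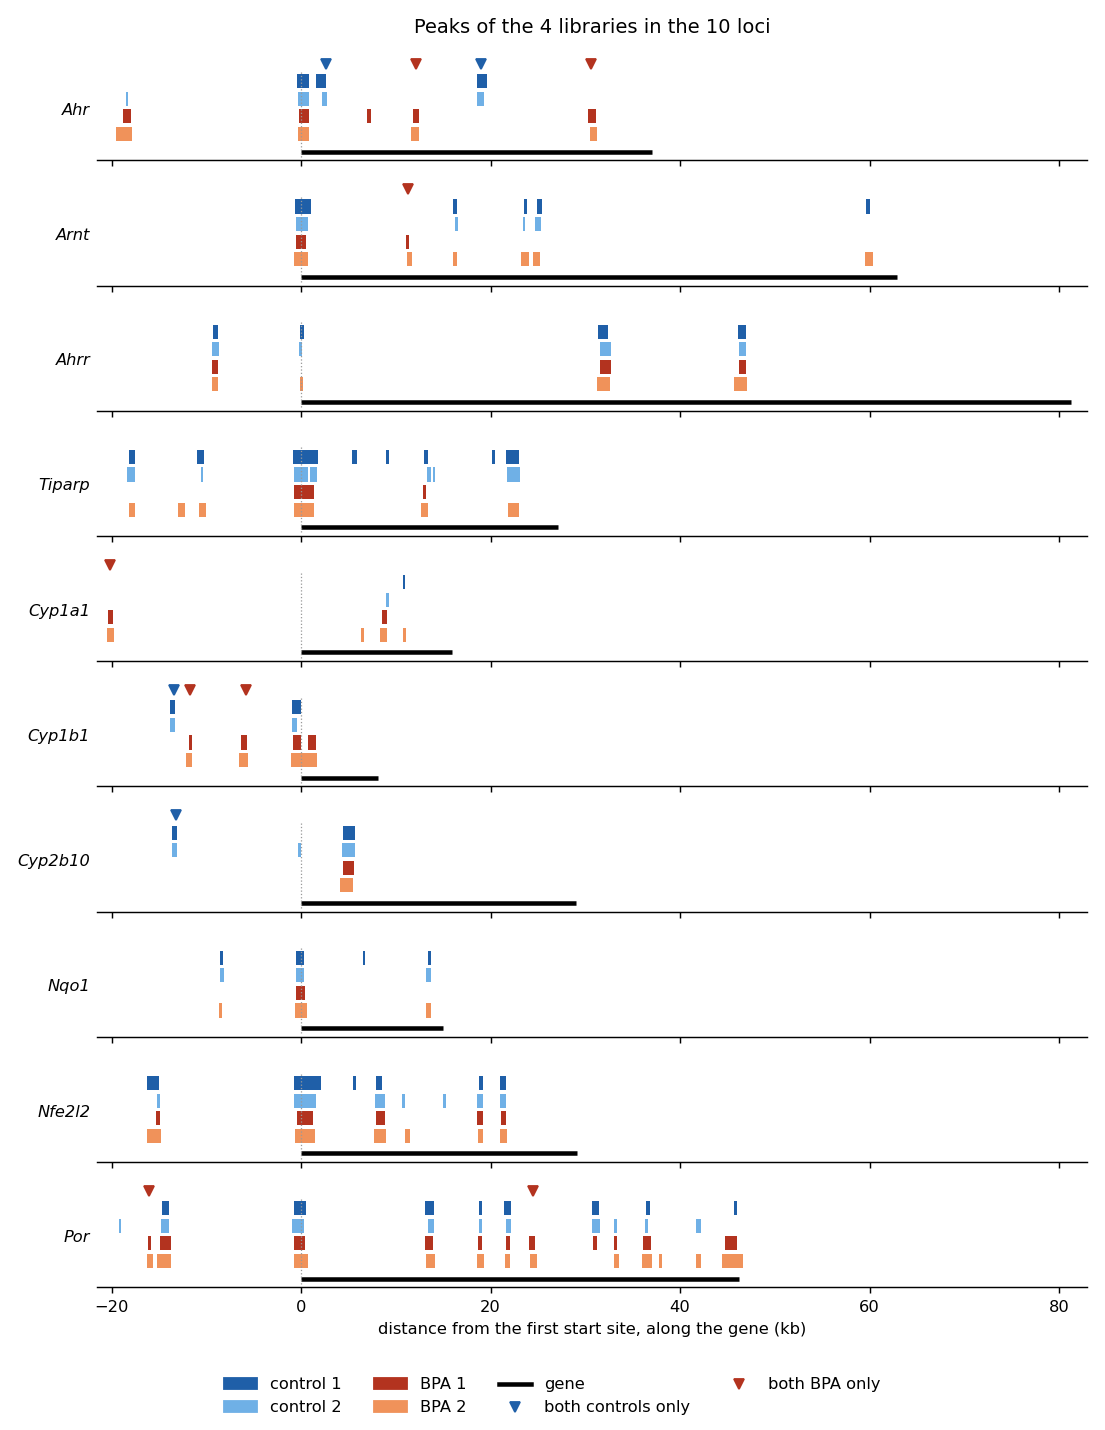
Peaks of the 4 libraries in the 10 loci, by distance in kb from the first start site along the gene (black bar), with 1 row of boxes per library; triangles mark the 4 regions found in both controls only (blue) and the 8 found in both BPA libraries only (red). Nfe2l2 and Por hold most of the regions shared by all libraries, and Ahr and Cyp1b1 most of those of 1 group.

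Cyp2b10 (chr7:25897658-25926624, plus strand) held the group-only region with the best ranks, ahead of the intronic Por region. Its locus had 3 regions. The intronic one at 4792 bp was in all 4 libraries, at ranks of 12.2% and 18.3% in controls 1 and 2, and 52.6% and 42.9% in BPA 1 and 2, and both controls were ahead. The promoter had a peak in control 2 only, at rank 28.0% with a pile-up of 34 reads. The region 13157 bp upstream (chr7:25884027-25884604), intergenic, was found in both controls and neither BPA library.

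This last region was strong in both controls. It ranked at 6.20% in control 1 and 7.40% in control 2, with pile-ups of 42 and 45 reads, 11.0-fold and 11.1-fold over a local background close to the lowest of each library. In the BPA libraries peaks over such low background were listed down to a fold of 3.10 in BPA 1 and 2.32 in BPA 2. These values come from the whole lists and give no BPA signal at this site. Why no BPA peak was listed here was not tested. The 201 bases around the summit of the region (chr7:25884401-25884601, plus strand) held none of the 3 motifs. They carried a unit of 13 bases repeated 4 times in a row near the 5′ end, which the printed line shows in lower case like the rest. A tandem stretch of 52 bases or longer with a unit of 6 to 30 bases was present in 0.370% of the summit windows of all regions. The repeat was noticed after the sequence was read, and the number of copies in these CD-1 animals was not measured.
Cyp2b10 upstream, 13157 bp, control-only: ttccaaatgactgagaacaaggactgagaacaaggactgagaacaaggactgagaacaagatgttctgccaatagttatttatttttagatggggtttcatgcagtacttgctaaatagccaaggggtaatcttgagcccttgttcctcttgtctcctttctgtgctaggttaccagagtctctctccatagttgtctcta

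Control-only regions continued beyond the locus. The next one, at 20933 bp (chr7:25876461-25877319), lay with its nearer edge 20339 bp from the start site, just outside the 20 kb limit. It ranked at 17.1% in control 1 and 45.5% in control 2, with pile-ups of 32 and 19 reads. Another, at 33716 bp (chr7:25863681-25864674), ranked at 25.4% and 17.0%, with pile-ups of 25 and 33 reads. Between them, at 27388 bp, control 1 alone had a peak at 74.5%. From 33977 bp upstream to the promoter, then, controls had 4 regions in control 1 or 2 besides the promoter peak of control 2, and the BPA libraries had none. Within 100 kb either side of the gene there were 17 regions, 3 of them control-only and none BPA-only. Over all merged regions the shares were 5.33% and 9.4%. BPA 1 alone had 1 of the 17 and BPA 2 alone had 2. The gene was chosen with its control-only peaks known, so this count is a description. Without control 1 the locus itself had 2 control-only regions, since the promoter peak of control 2 then joined them, and among the best 20000 peaks of each list it also had 2, the second being the intronic region at 4792 bp. The only other curated gene in this window was Cyp2s1. At 49416 bp, on the side of Cyp2s1, the ranks were 14.5%, 8.92%, 15.2% and 10.9% in controls 1 and 2 and BPA 1 and 2. Every region farther upstream than 33977 bp held a peak in at least 1 BPA library. The summits of both outer regions (chr7:25876675-25876775 and chr7:25863892-25863992, plus strand) are shown with an antioxidant element in capitals in the farther one.
Cyp2b10 upstream, 20933 bp, control-only: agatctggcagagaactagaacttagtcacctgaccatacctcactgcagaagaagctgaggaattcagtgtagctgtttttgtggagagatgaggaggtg
Cyp2b10 upstream, 33716 bp, control-only: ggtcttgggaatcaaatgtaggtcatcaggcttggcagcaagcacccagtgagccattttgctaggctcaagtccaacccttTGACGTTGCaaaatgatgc

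**Figure D5:**
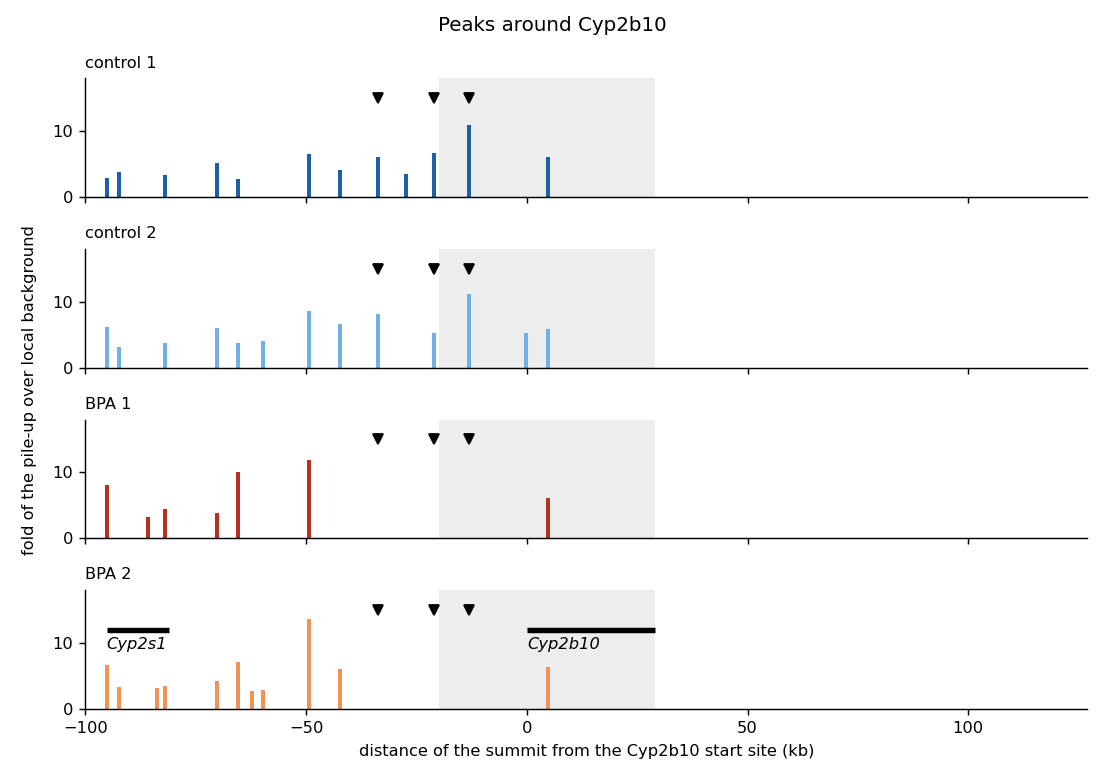
Fold of the pile-up over local background for each peak within 100 kb of Cyp2b10, by distance in kb of the summit of its merged region from the start site; each panel is a library, grey marks the locus, bars at the bottom panel mark the genes and triangles the 3 control-only regions. The control-only region nearest the gene is the highest bar of both controls at 11.0-fold and 11.1-fold, and the BPA panels are empty from the promoter to beyond 33 kb upstream.

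Genes that work with the 10 were read from 9 lists of 75 genes in all. Of the 75, 56 and 54 had a promoter peak in controls 1 and 2, and 55 and 59 in BPA 1 and 2, and 52 were open in all 4 libraries, beside 57.9% of all coding genes. None was control-only and 2 were BPA-only, where 0.433% and 2.51% of all coding genes were, so this count is close to the background. The 2 were Arnt2, a paralog of Arnt, at ranks of 75.1% and 41.1%, and Aldh3a1, an aldehyde dehydrogenase induced through the Ah receptor, at 67.8% and 62.7%. The partners and cofactors of the receptor, among them Hsp90aa1 and Hsp90ab1, were open in all libraries for 7 of 8 genes, Arnt2 being the exception. Of 6 further target genes of the receptor, 3 were open in all libraries and 2 in none. The NRF2 partners and regulators, including Keap1, Cul3 and Rbx1, were open throughout for 8 of 8. Among other NRF2 targets 9 of 10 were open in all 4 libraries, with Gsta4, a glutathione transferase, missing from BPA 1.

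Without a promoter peak in any library were 30.4% of all coding genes. Of 7 genes of the CAR and PXR axis, 1 was open in all 4 libraries and 4 in none. Nr1i3, which encodes CAR, was among the 4 without a promoter peak in any library. Nr1i2, which encodes PXR, and the transporter gene Abcb1a each had a promoter peak in BPA 2 alone. None of the 7 neighbouring Cyp2a and Cyp2b genes, such as Cyp2b9 and Cyp2b13, had a promoter peak in any library. The genes linked to electron transfer or haem turnover of P450 enzymes were open in all libraries for 6 of 6. Other cytochrome P450 genes were so for 7 of 11, with Cyp2e1 missing from BPA 1 and Cyp4b1 from control 2. Conjugating enzymes were so for 11 of 12, the other being Ugt1a1, seen in control 1 alone.

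The G+C content of the promoters is given for each gene. The 500 bp either side of the start site held 73.8% G+C in Tiparp, 66.8% in Nfe2l2, 64.0% in Ahr, 63.8% in Por, 56.0% in Cyp1b1, 55.6% in Arnt and 51.6% in Nqo1, all open in every library. Ahrr, open in 3 libraries, held 53.8%. It held 49.7% in Cyp2b10 and 50.5% and 51.0% at the start sites of Cyp1a1, which were open in 1 library or none. Over all coding genes the median was 60.2% for those open in all 4 libraries and 46.0% for those open in none, and Cyp1b1, Arnt and Nqo1 lay below the first of these.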

How the data were processed

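ATAC-seq libraries of 4 CD-1 adipose samples, 2 control and 2 BPA, were analysed from peak lists, grouped by their labels. Per the labels and the methods of the study, the authors trimmed reads with Trim Galore, mapped them to mm10 with Bowtie2 2.3.5.1, kept unique alignments, removed duplicates with SAMtools and ran MACS2 2.2.7.1 on every library separately. The deposited score is a whole number derived from the q-value, and the deposited ratio is the fold of the summit pile-up over local background. Both the deposited −log10 p-value and the deposited −log10 q-value come from the Poisson model of the caller, and the last deposited column is the offset of the summit. The largest q-values of the lists lie at 0.05, and other options of the caller were not given in the sources used here.

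Ranks are the percent of peaks in a list with a −log10 q-value at or above that of a peak. The pile-up and background were solved from fold and p-value (relative error below 1e-04 in 100% of peaks) and tested on simulated data, as was the merging of regions. Promoters were 500 bp either side of start sites of 45756 curated RefSeq transcripts. Group-only regions had a peak in both libraries of a group and none in the other, with 1 bp of overlap sufficient. Sequences came from GRCm38. Python 3.11.15, numpy 2.4.6, pandas 2.3.3, scipy 1.17.1 and matplotlib 3.10.9 were used.

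The 10 genes, the pathway and marker lists and the regions to describe were chosen with earlier results of these data known. Named were all 10 genes, every group-only locus region, the best distal region of each gene, and of the lists the group-only genes and otherwise at most 3 per list, with those missing from some libraries added after their values were seen. No test between groups was run, because the smallest two-sided p of an exact permutation test is 0.333 with 2 libraries a group. As alternatives served a stricter −log10 q-value (5 or more), the best 20000 peaks, equal numbers of peaks, summits in place of peaks, other windows and overlaps, ranks by fold or pile-up, and leaving out each library. Leaving out libraries for the counts of promoter and locus peaks was added after seeing the data.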

Additional observations from a re-analysis of the deposited data

How the results depend on the processing

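Group means were held to 1 SD of the group and other counts to 1.5 times the reported count. Of 85 alternative values, 60 stayed within these limits and 25 did not. Promoter peaks averaged 6.5 genes in controls and 6.5 in BPA among the best 20000 peaks, 7.5 and 6.5 when the summit had to lie in the window, and 8.5 in BPA with 1000 bp either side. Locus peaks averaged 29.5 in controls and 35.5 in BPA at a −log10 q-value of at least 5, which turns the direction, 13 in controls and 13.5 in BPA among the best 20000, 38.5 in controls with equal numbers of peaks, 37 in controls with 10 kb upstream, and 72.5 and 71.5 with 50 kb. Control-only regions numbered 2 among the best 20000, 2 with 10 kb and 2 with an overlap of 80 percent of both peaks, and BPA-only regions 2, 5 and 1, with 5 at an overlap of 50 percent. Without each library in turn, control-only regions ranged from 5 to 13 and BPA-only regions from 9 to 12. Cyp2b10 control-only regions numbered 2 among the best 20000, 3 within 100 kb either side, and from 1 to 2 without each library.

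Of 49 alternative rank differences, 40 stayed within the larger replicate SD and kept their sign, 3 moved farther and 6 reversed. The reversals were 0.256 for Ahr by pile-up, and by fold 24.3 for Cyp1b1, 0.148 for Nfe2l2 and 0.518 for Por. Cyp1b1 ranged from -10.9 to 8.79 without each library, reversing at 4.32 without control 2 and 8.79 without BPA 2. The cause of these changes was not tested. No paired analysis was possible because no result comes from a test, and the labels tie no control library to a BPA library. Peak lists hold sites past a threshold, so an absent peak does not show closed chromatin, least of all in BPA 1, the shallowest library. Read totals were not analysed here, and intervals for single values were not computed.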
